A study of Mus musculus with 6 samples.

Results

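The 10 integrin genes Itga4, Itga5, Itga6, Itgav, Itgal, Itgam, Itgax, Itgb1, Itgb2 and Itgb7 are those that erythroblasts and white blood cells carry, set apart from the platelet integrins. They were chosen by name, and all 10 were found among the 37620 genes counted. RNA sequencing had been done on 6 libraries of BFU-E (burst-forming unit erythroid), which are early red cell progenitors, taken from E14.5 fetal livers of the mouse strain 129/SvImJ. Of these, 2 libraries came from cells given 100 nM dexamethasone (Dex) together with 10 µM GW7647, 2 from cells given 100 nM Dex, and 2 from untreated cells. Dex activates the glucocorticoid receptor, and GW7647 activates the nuclear receptor PPARα. All cells were kept in a serum-free medium with erythropoietin (2 U/mL), IGF-1 (40 ng/mL) and SCF (100 ng/mL), and the untreated cells had that medium alone. The labels give 12 h of treatment for the cells with drugs, whereas 36 h appears in column headers of 1 table. For the untreated cells the treatment label gives no time. No group received GW7647 without Dex. Before culture, cells positive for lineage markers, Sca-1, CD16/32, CD41 or CD34 had been removed, and c-kit-positive cells among the 10% lowest in CD71 had been sorted. Nothing in the labels says whether the 2 libraries of a group came from separate litters, so the tests measure the spread between these libraries.

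Integrins are receptors of an alpha and a beta chain that bind matrix proteins or receptors on other cells, and that signal in both directions across the membrane. In the erythroblastic island, the alpha-4 chain pairs with beta-1 to bind VCAM-1 on the central macrophage and fibronectin in the matrix, while the alpha-5 chain pairs with beta-1 as the classical fibronectin receptor. The beta-2 chain is confined to blood cells and pairs with several alpha chains, among them alpha-L, alpha-M and alpha-X. Those receptors bind ICAMs, complement fragments and fibrinogen.

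Promoter sequences were available for 7 of the 10 members (RefSeq, build GRCm38.p6, 250 bases before to 50 after the start). Motifs were searched on both strands, and no 2 matches overlapped. The PU.1 box GAGGAAG, a site type of the myeloid factor PU.1, was present in 13.6% of 32851 promoters of the same length and in those of Itgam, Itgav and Itgb7. These 3 sequences are shown because one belongs to a gene that was lower and the others to genes that were higher after Dex (below), and capitals mark the box.
Itgam, chr7:128062390-128062689, plus strand: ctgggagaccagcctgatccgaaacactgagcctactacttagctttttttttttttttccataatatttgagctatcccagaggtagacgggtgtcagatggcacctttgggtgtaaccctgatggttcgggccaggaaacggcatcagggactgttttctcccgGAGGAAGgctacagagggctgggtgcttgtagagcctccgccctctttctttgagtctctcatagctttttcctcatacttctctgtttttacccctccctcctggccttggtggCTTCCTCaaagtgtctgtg
Itgav, chr2:83724147-83724446, plus strand: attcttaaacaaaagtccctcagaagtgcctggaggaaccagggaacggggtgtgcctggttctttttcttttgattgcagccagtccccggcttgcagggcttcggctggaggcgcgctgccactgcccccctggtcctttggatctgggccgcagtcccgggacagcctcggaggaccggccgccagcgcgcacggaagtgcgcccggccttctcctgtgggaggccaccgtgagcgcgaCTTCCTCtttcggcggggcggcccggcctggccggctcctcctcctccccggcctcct
Itgb7, chr15:102231886-102232185, minus strand: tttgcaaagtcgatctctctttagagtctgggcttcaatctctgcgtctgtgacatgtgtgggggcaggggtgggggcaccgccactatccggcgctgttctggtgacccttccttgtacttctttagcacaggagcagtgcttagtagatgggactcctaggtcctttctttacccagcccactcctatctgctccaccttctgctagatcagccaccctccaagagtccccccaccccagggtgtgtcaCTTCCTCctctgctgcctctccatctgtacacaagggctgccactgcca
In Itgam a box begins 84 bases before the start and another 31 bases after it, in Itgav it begins 8 bases before, and in Itgb7 it begins 1 base after. The letters CTTCCTC are the box on the opposite strand. The glucocorticoid receptor core AGAACA was in the promoters of Itgax, Itgb1 and Itgb7 (19.0% of all promoters), and the nuclear receptor core AGGTCA was in none of the 7 (16.3% of all). The GATA site AGATAA was in Itgax (11.2% of all), and the SP1 box GGGCGG was in Itga4, Itga5, Itgav, Itgam and Itgb1 (35.7% of all). A match describes letters in this window and not a bound site.

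The libraries held 35970286 to 54174801 counts. All 12 markers of erythroid progenitors were measured, among them Kit at 12841 ± 64.4 normalized counts with both drugs, 12656 ± 36.9 with Dex and 4291 ± 28.6 untreated (SD, n = 2 each, as for all means here). Their summed level ranged over 430569 to 432198 with both drugs, 402305 to 414722 with Dex and 776996 to 860203 untreated. The largest part of that sum was Hba-a1, an alpha-globin gene (190365 ± 686 with both drugs, 175907 ± 9742 with Dex, 435077 ± 56565 untreated). Gata1 (10361, 10444 and 11930 in the same order) and Epor (7403, 7456 and 7341) moved less. Of the 12 markers, 7 were called lower and 3 higher with Dex against untreated, beside 26.0% and 25.5% of all genes tested. Normalized counts are read counts scaled for library size by trimmed mean of M values (TMM). Markers of other blood cells were also present, and several of those cells carry beta-2 and beta-7 integrins. The summed 13 granulocyte markers ranged over 4492 to 4575 with both drugs, 7306 to 7622 with Dex and 15331 to 16358 untreated, the 12 mast cell and basophil markers over 5674 to 5776 with both drugs, 9813 to 10165 with Dex and 6231 to 6241 untreated, and the 14 monocyte and macrophage markers over 422 to 425 with both drugs, 532 to 565 with Dex and 661 to 687 untreated. At 0 counts in all 6 libraries were 2 of the 14 monocyte and macrophage markers, the complement gene C1qa and the scavenger receptor Cd163. So were 1 of the 13 granulocyte markers, Ly6g, and 1 of the 12 lymphoid markers, the T cell gene Cd3d. Others of these lists were present, such as Csf1r of macrophages (160 ± 13.7 with both drugs, 229 ± 4.56 with Dex, 260 ± 0.162 untreated). Elane of granulocytes had 132 ± 8.36, 326 ± 24.0 and 681 ± 43.0 in the same order. The summed 12 lymphoid markers ranged over 61.4 to 67.7 with both drugs, 62.8 to 73.3 with Dex and 147 to 184 untreated, of which 3 were measured (Lck, Cd79b and Il7r). In bulk RNA, fewer cells of a type and less RNA per cell cannot be told apart.

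Per kilobase of annotated exon, Itgb1 and Itga4 stood above the other members in all 3 groups. Itgb1 had 3670 ± 32.7 normalized counts per kb with both drugs, 3590 ± 166 with Dex and 3450 ± 123 untreated, and Itga4 had 1270 ± 31.4, 1370 ± 133 and 1340 ± 110 per kb in the same order of groups. Itgb2 was next with 423 ± 10.3, 862 ± 23.8 and 387 ± 0.197 per kb, followed by Itgb7 and Itga5. In untreated cells, Itga5 (205 ± 13.2 per kb) and Itga6 (192 ± 0.0821) differed by no more than the SD of Itga5, and Itgav (41.7 ± 1.56) and Itgam (37.5 ± 2.31) lay close together. With Dex, Itga6 (60.4 ± 2.32 per kb) and Itgav (59.1 ± 0.0676) could not be ordered beyond their spread. The alpha chains of beta-2 were far below it: in Dex libraries Itgal had 47.6 ± 2.12 and Itgam 10.9 ± 1.5 normalized counts per kb, against 862 ± 23.8 for Itgb2. Itgax was nearly absent, with 1 and 1 counts with both drugs, 0 and 0 with Dex, and 4 and 2 untreated. Exon lengths come from a later annotation than the one behind the counts, so these levels are approximate.

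**Figure D1:**
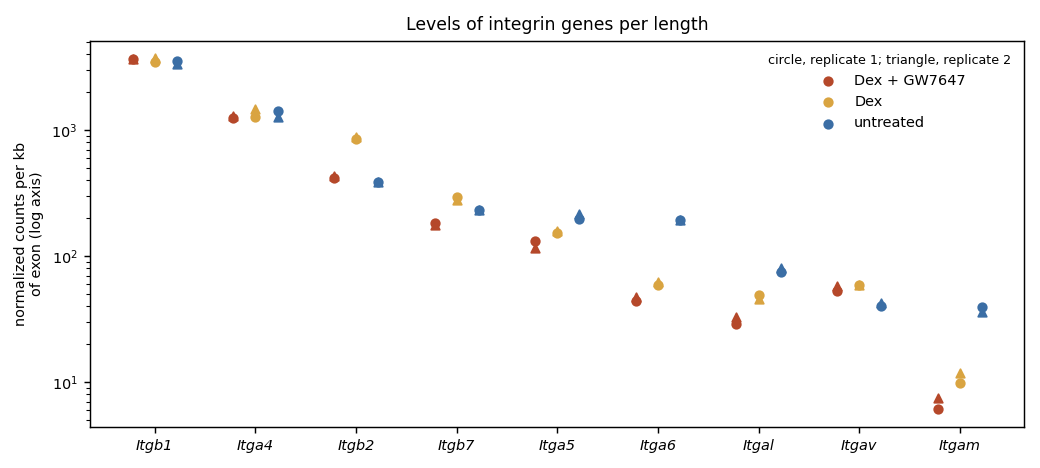
Normalized counts per kb of exon (log axis) of 9 integrin genes in each library of cells with Dex plus GW7647, Dex or no treatment; Itgax, at 0 in some libraries, is left out. Itgb1 and Itga4 lie highest in every group, and Itgam lies lowest.

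Neither chain of the VCAM-1 receptor was called in any comparison. Itga4 had 17388 and 18008 normalized counts in the libraries with both drugs, 17858 and 20487 in the Dex libraries and 19814 and 17641 in the untreated libraries. The 3 groups overlapped. Its log2 difference was 0.03 ± 0.07 with Dex against untreated (95% interval -0.13 to 0.20, adjusted p = 0.724) and -0.12 with both drugs against Dex (95% interval -0.28 to 0.05, adjusted p = 0.378). Between both drugs and untreated it was -0.08 (95% interval -0.25 to 0.08, adjusted p = 0.389). Itgb1 had 15062 and 14874 normalized counts in the libraries with both drugs, 14186 and 15142 in the Dex libraries and 14429.6 and 13718 in the untreated libraries. The Dex libraries overlapped with both other groups, while the libraries with both drugs lay just above the untreated ones. The log2 difference of Itgb1 was 0.06 with Dex against untreated (95% interval -0.05 to 0.17, adjusted p = 0.357) and 0.03 with both drugs against Dex (95% interval -0.08 to 0.14, adjusted p = 0.77), and 0.09 with both drugs against untreated (95% interval -0.02 to 0.20, adjusted p = 0.171). Scaling by total counts, which shifted the median gene by log2 0.13 in Dex against untreated and by 0.12 in both drugs against untreated, made Itgb1 higher in both (log2 0.19, adjusted p = 0.00837, and log2 0.21, adjusted p = 0.0049).

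**Figure D2:**
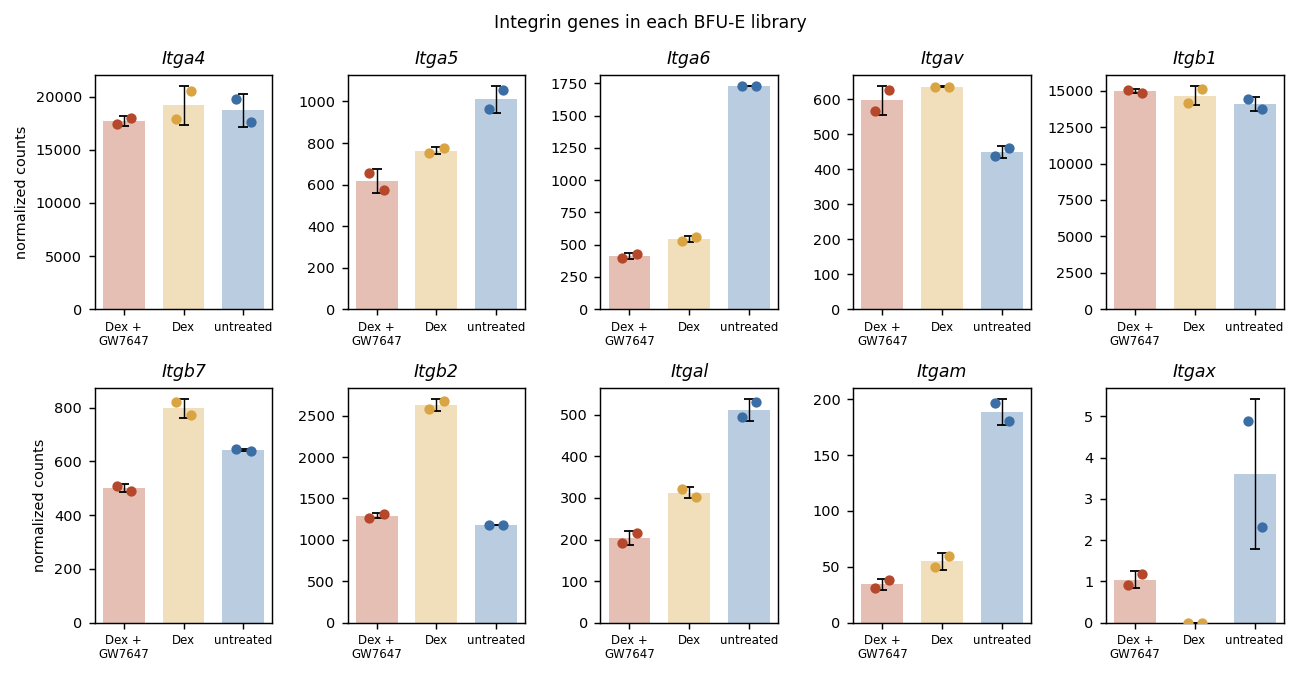
Normalized counts of the 10 integrin genes in each library (points), with the group mean (bar) and SD (error bar, n = 2), for cells with Dex plus GW7647, Dex or no treatment. Itga4 and Itgb1 differ little between groups, Itgb2 is highest in the Dex libraries, and Itga6, Itgal and Itgam are highest in untreated cells.

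Among the members, Itga5, Itga6 and Itgav, alpha chains that also join beta-1, were each called in at least 2 comparisons. Itga6, the chain of the laminin receptor, had 396 and 428 normalized counts in the libraries with both drugs, 530.1 and 559.8 in the Dex libraries and 1731 and 1732 in the untreated libraries. The groups did not overlap, and the 2 untreated libraries stood far above the other 4. Itga6 was 3.18-fold lower with Dex than untreated (log2 -1.67 ± 0.07, adjusted p = 3.07e-08) and 1.32-fold lower with both drugs than with Dex (log2 -0.41 ± 0.07, adjusted p = 0.0063). The call with both drugs was lost without replicate 1 of the cells with both drugs (adjusted p = 0.101). Against untreated cells, Itga6 was 4.21-fold lower with both drugs (log2 -2.08 ± 0.07, adjusted p = 1.58e-08). Itga5, the fibronectin receptor chain, had 657 and 575 normalized counts in the libraries with both drugs, 751 and 774 in the Dex libraries and 965 and 1057 in the untreated libraries. Its groups did not overlap either, in the same order as for Itga6, and it fell by 0.41 on the log2 scale with Dex against untreated (adjusted p = 0.00178). With both drugs against Dex it fell by 0.30 (adjusted p = 0.046), a call that was lost when any 1 library of those groups was left out, with adjusted p of 0.0635 and 0.357 (leaving out the first or the second library with both drugs), 0.0693 and 0.091 (the first or the second Dex library). The drop against untreated was 0.71 with both drugs (adjusted p = 6.1e-05). The call against Dex was lost as well under DESeq2 (adjusted p = 0.061) and in edgeR on the 4 libraries compared (adjusted p = 0.0556).

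Itgav, the alpha-V chain of receptors for vitronectin and fibronectin, was higher in both treated groups than in untreated cells. It had 567 and 626 normalized counts in the libraries with both drugs, 636 and 635 in the Dex libraries and 436 and 460.2 in the untreated libraries. The untreated libraries were the lowest, and Itgav was 1.42-fold higher with Dex (log2 0.50 ± 0.08, adjusted p = 0.000484) and 1.33-fold higher with both drugs (log2 0.41 ± 0.08, adjusted p = 0.00213), each against untreated. Between both drugs and Dex it was not called (log2 -0.09 ± 0.08, adjusted p = 0.497, 95% interval -0.27 to 0.08).

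Itgb7, the beta chain that joins alpha-4 to bind MAdCAM-1 in gut-homing white cells, rose with Dex and was low when GW7647 was added. It had 510.0 and 489 normalized counts in the libraries with both drugs, 823 and 774 in the Dex libraries and 645 and 639 in the untreated libraries. The groups did not overlap. Itgb7 was 1.24-fold higher with Dex than untreated (log2 0.31 ± 0.07, adjusted p = 0.00381), 1.6-fold lower with both drugs than with Dex (log2 -0.68 ± 0.07, adjusted p = 0.000263), and 1.28-fold lower with both drugs than untreated (log2 -0.36 ± 0.07, adjusted p = 0.00236).

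Itgb2, the common beta chain of the leukocyte integrins, was likewise highest with Dex. It had 1270.0 and 1314 normalized counts in the libraries with both drugs, 2579 and 2682 in the Dex libraries and 1179.8 and 1181 in the untreated libraries. The Dex libraries stood far above the other 4, and the libraries with both drugs lay slightly above the untreated ones. Itgb2 was 2.23-fold higher with Dex than untreated (log2 1.16 ± 0.05, adjusted p = 8.54e-08) and 2.04-fold lower with both drugs than with Dex (log2 -1.03 ± 0.05, adjusted p = 3.54e-06). Between both drugs and untreated, the difference was small and not called (log2 0.13 ± 0.05, adjusted p = 0.0739, 95% interval 0.01 to 0.25), although scaling by total counts gave a call (log2 0.25, adjusted p = 0.00277). The authors' deposited table gives Itgb2 an adjusted p of 2.82e-35 between both drugs and Dex and of 0.326 between both drugs and untreated.

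Of the 3 alpha chains among the members that pair with beta-2, Itgal and Itgam were lower with Dex than untreated, and Itgax was not tested. Itgal, the alpha-L chain of LFA-1, the ICAM receptor of lymphocytes and other white cells, had 191 and 215 normalized counts in the libraries with both drugs, 323 and 303 in the Dex libraries and 494 and 531 in the untreated libraries. The groups did not overlap: Itgal was 1.64-fold lower with Dex than untreated (log2 -0.71 ± 0.10, adjusted p = 0.000155) and 1.55-fold lower with both drugs than with Dex (log2 -0.63 ± 0.10, adjusted p = 0.00389). Without replicate 1 of both drugs the adjusted p of the second difference was 0.0635. Relative to untreated cells, Itgal was 2.53-fold lower with both drugs (log2 -1.34 ± 0.10, adjusted p = 3.13e-06). Itgam, the alpha-M chain of the complement receptor Mac-1 on granulocytes and macrophages, had 30.7 and 37.8 normalized counts in the libraries with both drugs, 49.4 and 60 in the Dex libraries and 197 and 180.4 in the untreated libraries. It rested on few reads, from 32 to 161 counts a library.

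Itgam was 3.46-fold lower with Dex than untreated (log2 -1.79 ± 0.17, adjusted p = 1.16e-05) and 5.55-fold lower with both drugs than untreated (log2 -2.47 ± 0.19, adjusted p = 2.85e-06). Between both drugs and Dex the libraries did not overlap, but the difference was not called (log2 -0.68 ± 0.21, adjusted p = 0.0736, 95% interval -1.15 to -0.21); with no filter on low counts it was called (adjusted p = 0.0262). A later annotation holds a further gene, Gm49368, that shares exons with Itgam on the same strand, and it has no entry in the count tables. Itgax, the alpha-X chain of dendritic cells and macrophages, did not pass the filter on low counts and was not tested. Like Itgal and Itgam, markers of several cell types were mostly lower. Of 12 measured granulocyte markers, 9 were lower and 1 was higher with Dex against untreated, beside 26.0% and 25.5% of all genes tested. With both drugs against Dex 11 were lower and 0 higher, beside 7.58% and 2.15% of all genes. Megakaryocyte markers had 9 of 11 lower and 0 higher in each of these comparisons. Eosinophil markers (4 measured) had 3 lower and 1 higher in the first, and 2 lower and 0 higher in the second. Of the 3 measured lymphoid markers, 2 were lower with Dex against untreated (26.0% of all genes tested), 3 with both drugs against untreated (25.1%) and 0 with both drugs against Dex (7.58%). Mpo, myeloperoxidase, fell by 1.24 and by 0.56 on the log2 scale with Dex against untreated and with both drugs against Dex (adjusted p = 9.36e-08 and 0.00029). The summed mast cell and basophil markers were highest in the Dex libraries, as Itgb2 and Itgb7 were. That peak was carried by Hdc, the histamine enzyme (5029.6 ± 64.6 with both drugs, 8683 ± 277 with Dex, 1749 ± 0.779 untreated). Most other markers of that list did not rise with Dex, such as Cpa3 (487 ± 4.48, 685 ± 54.6 and 2876 ± 27.1 in the same order). Of its 8 measured markers, 2 were higher and 5 lower with Dex against untreated, beside 25.5% and 26.0% of all genes tested. With both drugs against Dex, 7 were lower and 0 higher, beside 7.58% and 2.15% of all genes. The part of these cells in the integrin values was not tested.

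With Dex against untreated, 3 of the 9 tested members were called higher (Itgb2, Itgav and Itgb7), beside 25.5% of all 14125 genes tested, and 4 were called lower (Itga6, Itgam, Itgal and Itga5), beside 26.0%. Adding GW7647 to Dex gave 5 lower calls (Itgb2, Itgb7, Itgal, Itga6 and Itga5), beside 7.58% of all genes, and 0 higher calls, beside 2.15%. No member was higher at an unadjusted p under 0.05 in that comparison with edgeR, and DESeq2 and limma-trend gave 0 higher calls as well. Without replicate 1 of both drugs, the lower calls numbered 2, while the calls over all genes dropped to 548. With both drugs against untreated, 1 member was higher (Itgav; 24.7% of all genes) and 5 were lower (Itga6, Itgam, Itgal, Itga5 and Itgb7; 25.1% of all genes). The comparisons share libraries, so they are not independent of each other.

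**Figure D3:**
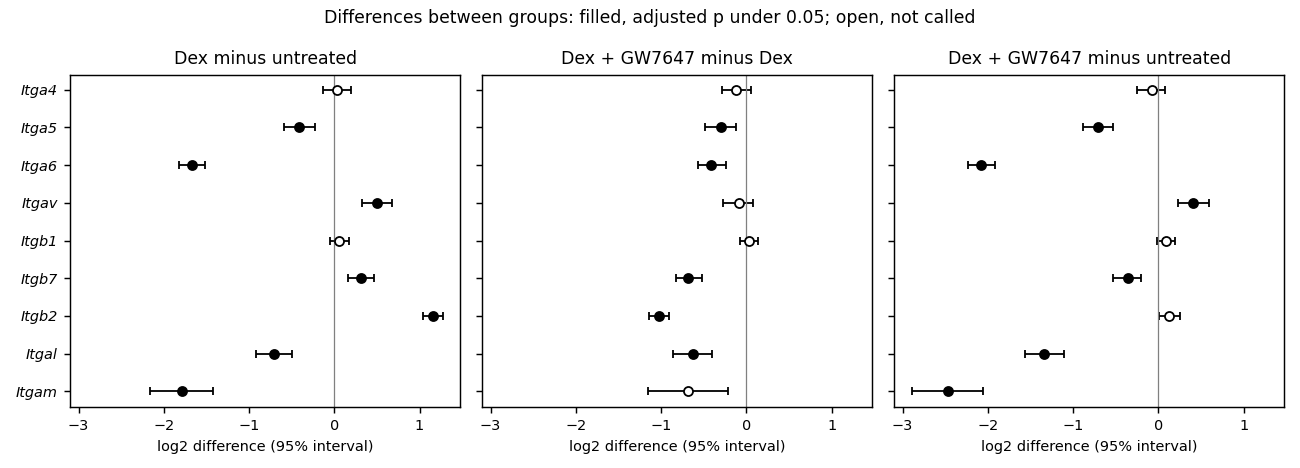
Log2 differences with 95% intervals of the 9 tested integrin genes in the 3 comparisons; filled points have an adjusted p under 0.05. With Dex minus untreated the points spread to both sides of 0, and with Dex plus GW7647 minus Dex each called point lies below 0.

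Ratios of read counts within a library do not depend on the scaling between libraries. Per 100 counts of Itgb1, Itgb2 had 8.43 and 8.84 in the libraries with both drugs, 18.2 and 17.7 in the Dex libraries and 8.18 and 8.61 in the untreated libraries. By this measure too, the Dex libraries stood apart and the others lay close together. Itgb7 had, per 100 counts of Itgb1, 3.39 and 3.29 in the libraries with both drugs, 5.8 and 5.11 in the Dex libraries and 4.47 and 4.66 in the untreated libraries. The alpha chains shifted relative to Itga4: per 100 of its counts, Itga6 had 2.28 and 2.37 in the libraries with both drugs, 2.97 and 2.73 in the Dex libraries and 8.74 and 9.82 in the untreated libraries. Itgav had 3.26 and 3.48 in the libraries with both drugs, 3.56 and 3.1 in the Dex libraries and 2.2 and 2.61 in the untreated libraries per 100 counts of Itga4. Its treated libraries were thus above its untreated ones. Itgal had 624 and 569 in the libraries with both drugs, 653 and 505 in the Dex libraries and 251 and 294 in the untreated libraries per 100 counts of Itgam, so that its share between the 2 alpha chains was larger in all 4 treated libraries. Set against their own beta chain, a ratio chosen after the values were seen, Itgal had 15.1 and 16.4 in the libraries with both drugs, 12.5 and 11.3 in the Dex libraries and 41.9 and 45 in the untreated libraries per 100 counts of Itgb2. With 2 libraries against 2, an exact permutation test of such a ratio cannot pass a threshold of 0.05, and none was run.

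**Figure D4:**
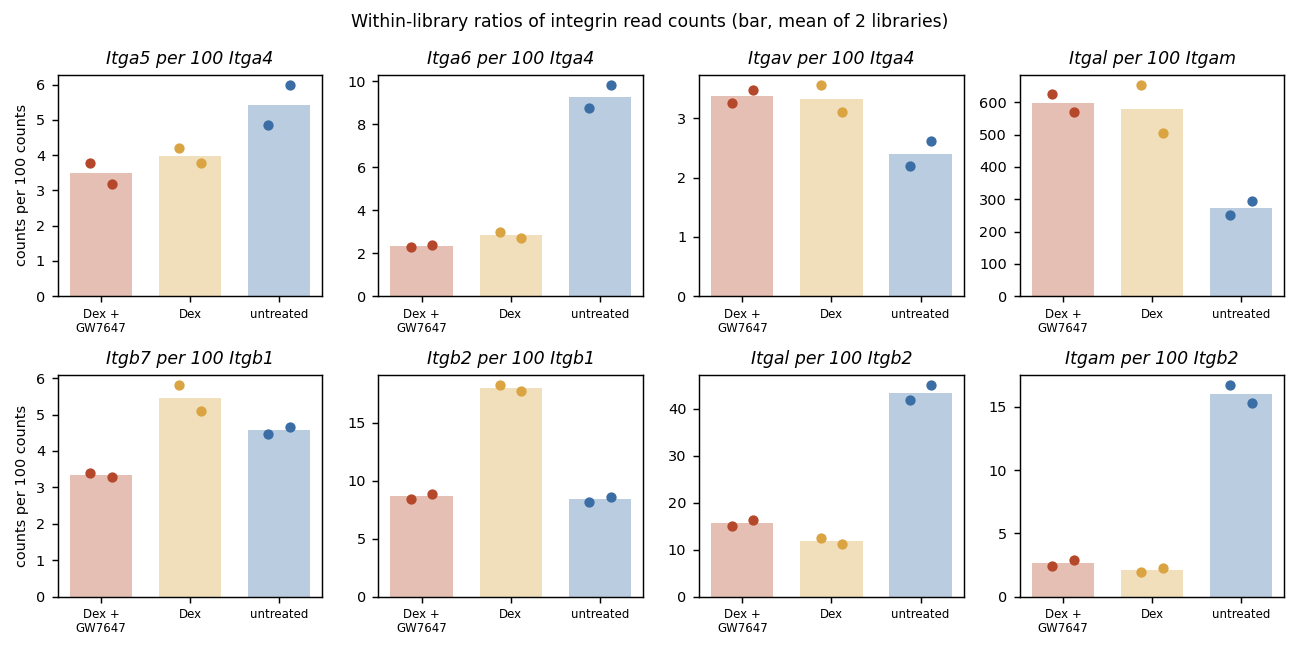
Read counts of an integrin gene per 100 counts of another in the same library (points; bars, means of 2 libraries) for cells with Dex plus GW7647, Dex or no treatment. Itgb2 per 100 Itgb1 is 8.63 with both drugs, 17.9 with Dex and 8.39 untreated, and Itgal or Itgam per 100 Itgb2 is highest in untreated cells.

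Of 16 other integrin subunits listed, 10 were measured (a mean of at least 10 normalized counts), and with Dex against untreated 6 were called lower and 0 higher, beside 25.5% higher and 26.0% lower of all genes tested (edgeR; 1 higher at an unadjusted p under 0.05, 0 called with DESeq2 or limma-trend, and 1 called under total count scaling or with no filter on low counts), with a median log2 difference of -0.97 beside 0.01 over all genes. The platelet beta-3 chain Itgb3 had 3771 ± 83.9 normalized counts with both drugs, 4595 ± 169 with Dex and 8183 ± 257 untreated, and it fell by 0.83 on the log2 scale with Dex. Its partner Itga2b, the CD41 antigen against which cells had been depleted, was not called with Dex (log2 -0.12, adjusted p = 0.131) and fell by 0.59 when GW7647 was added (adjusted p = 0.00023). Both are among the 11 megakaryocyte markers, of which 9 were lower with Dex against untreated, beside 26.0% of all genes tested. The part of megakaryocyte RNA was not tested. Itga9, Itga2 and Itga1, chains that join beta-1 to bind tenascin or collagen, fell by 1.52, 1.55 and 1.90 on the log2 scale with Dex. In the comparison of both drugs with Dex, 3 were lower and 0 higher (1 higher at an unadjusted p under 0.05, 0 called with DESeq2 or limma-trend, and 1 called with no filter on low counts or with a minimum count of 50), and without replicate 1 of both drugs 1 was lower. Itgb4, a laminin receptor chain, was among them (log2 -1.47). Both drugs against untreated gave 6 lower and 0 higher, with 0 higher also at an unadjusted p under 0.05, with DESeq2 and with limma-trend. Of all genes tested, 7.58% were lower and 2.15% higher with both drugs against Dex, and 25.1% lower and 24.7% higher with both drugs against untreated.

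Among ligands and counter-receptors, 12 of 24 were measured. Vcam1, the macrophage ligand of alpha-4 beta-1, was at or near 0, with 1.81 and 0 normalized counts with both drugs, 0 and 1.88 with Dex and 11 and 8.09 untreated. Icam4, a red cell counter-receptor, and Vtn, vitronectin, were at 0 counts in all 6 libraries. Icam1, a ligand of the beta-2 integrins, had 117 and 102 normalized counts with both drugs, 241 and 220.3 with Dex and 55 and 60.1 untreated. It was therefore highest in the Dex libraries, 4-fold above untreated (log2 2.00 ± 0.15, adjusted p = 2.76e-06) and 2.1-fold lower when GW7647 was added (log2 -1.07 ± 0.13, adjusted p = 0.000787). Lama5, a laminin chain, was 4.23-fold higher with Dex than untreated (log2 2.08, adjusted p = 8.34e-09), at 7482 ± 92.3 with both drugs, 11484 ± 984 with Dex and 2716 ± 99.8 untreated. Icam2, a further ligand of LFA-1, fell by 0.23 with Dex and by 0.44 when GW7647 was added (adjusted p = 0.0162 and 0.00299). Over the list, 2 were higher and 6 lower with Dex against untreated, beside 25.5% higher and 26.0% lower of all genes tested (median log2 -0.15, and 3 lower with DESeq2). With both drugs against Dex, 5 were lower and 0 higher, beside 7.58% and 2.15% of all genes tested. Emilin1, a matrix ligand of alpha-4 beta-1, fell by 0.90 and by 0.69 in these 2 comparisons. F11r, the junction protein JAM-A that LFA-1 binds, fell by 1.24 and by 0.56 (adjusted p = 0.0468 in the second). Relative to untreated, 2 were higher and 6 lower with both drugs, beside 24.7% and 25.1% of all genes tested. No ligand was higher with both drugs than with Dex at an unadjusted p under 0.05, with DESeq2 or with limma-trend.

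Activators and adaptors act on the switch of integrins to the binding state. Some in this list oppose that switch, so the counts below mix both kinds. Of 22 measured, 7 were higher and 7 lower with Dex against untreated, beside 25.5% higher and 26.0% lower of all genes tested (median log2 0.02). The shares called higher and called lower were both close to those of all genes. Rasgrp2, the exchange factor that loads Rap1 with GTP, had 409.8 and 406 normalized counts with both drugs, 589 and 633 with Dex and 1826 and 1924 untreated, and was 3.07-fold lower with Dex than untreated (log2 -1.62 ± 0.06, adjusted p = 3.42e-08). Its untreated libraries stood far above the other 4, as for Itga6. Rap1b fell by 0.69 on the log2 scale, while Rap1a rose by 0.43 (adjusted p = 0.000845). Apbb1ip, the adaptor RIAM between Rap1 and talin, was 1.93-fold higher (log2 0.95, adjusted p = 2.06e-07). Flna, filamin A, which competes with talin for beta tails, fell by 0.58. Fermt3, kindlin-3 of blood cells, rose by 0.39 (adjusted p = 0.000219), and Tln1, talin, was not called (log2 0.02, adjusted p = 0.729). After GW7647 was added to Dex, 6 were lower, among them Parvg (parvin gamma, log2 -1.08), Rassf5 (the Rap1 effector RAPL, -1.09), Rasgrp2 (-0.58) and Skap2 (-0.39). With edgeR 0 were called higher, as with DESeq2 and limma-trend, while 2 were higher at an unadjusted p under 0.05, and 1 was called with no filter on low counts. Of all genes tested, 7.58% were lower and 2.15% higher in that comparison, and 25.1% lower and 24.7% higher with both drugs against untreated. Both drugs against untreated gave 5 higher and 10 lower (6 lower without untreated replicate 1).

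Of 23 measured adhesion kinases and focal adhesion proteins, 6 were higher and 10 lower with Dex against untreated, beside 25.5% higher and 26.0% lower of all genes tested (median log2 -0.05). The share called higher was close to that of all genes. Zyx, zyxin, had 1349 ± 3.97 normalized counts with both drugs, 1518 ± 59 with Dex and 3852 ± 8.86 untreated, and fell by 1.34 with Dex. Actn1, an actin crosslinker, fell by 1.36, and Fyn, a Src family kinase, by 0.76. Lyn, a Src family kinase of blood cells, was 1.78-fold higher with Dex (log2 0.83, adjusted p = 3.34e-07) and fell by 0.44 when GW7647 was added (adjusted p = 0.000263). Vav1, a Rac exchange factor below integrins, was highest with Dex too and lowest with both drugs, with 1601 and 1584 normalized counts with both drugs, 2719.8 and 2572 with Dex and 1880.3 and 1834 untreated. Syk, a kinase that beta-2 integrins activate, fell by 0.73 with Dex and by 0.51 when GW7647 was added. Tns3, a tensin, fell by 0.36 when GW7647 was added, and Src fell by 2.21 with both drugs against untreated. Over all genes tested, 7.58% were lower and 2.15% higher with both drugs against Dex, and 25.1% lower and 24.7% higher against untreated. When GW7647 was added, 6 were lower and 0 higher, also 0 at an unadjusted p under 0.05, with DESeq2 or with limma-trend, and without replicate 1 of both drugs 3 were lower. Both drugs against untreated gave 4 higher and 11 lower, with 2 higher without replicate 1 of both drugs and 7 under total count scaling.

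Membrane partners of integrins counted 7 higher and 6 lower of 18 with Dex against untreated, beside 25.5% higher and 26.0% lower of all genes tested (median log2 0.02), with 3 higher under DESeq2 and 4 higher without untreated replicate 1, Dex replicate 1 or Dex replicate 2. Cd9, a tetraspanin that binds beta-1 integrins, had 1163 ± 43.3 normalized counts with both drugs, 1576 ± 45.8 with Dex and 4433 ± 11.5 untreated (log2 -1.49, adjusted p = 1.32e-08 with Dex). Cd37, a tetraspanin of white cells, had 1378 and 1379 with both drugs, 2109.5 and 2057 with Dex and 1232 and 1282 untreated, again highest with Dex. Cd81, a further tetraspanin, was 1.5-fold higher with Dex (log2 0.58, adjusted p = 4.39e-06), and Adam8, a leukocyte surface protease, was 2.51-fold higher (log2 1.33, adjusted p = 1.17e-05). When GW7647 was added, 8 partners were lower and 0 higher, beside 7.58% and 2.15% of all genes tested. The number higher was also 0 at an unadjusted p under 0.05, with DESeq2 and with limma-trend. Partners that were lower included Cd37 (log2 -0.60), Mmp14 (-1.87), Cd63 (-0.74) and Cd9 (-0.44). Without replicate 1 of both drugs, 5 were lower. Relative to untreated cells, 11 partners were lower and 4 higher with both drugs, and 2 were higher without replicate 2 of both drugs and 7 under total count scaling. Emb, embigin, fell by 1.27 there. Of all genes tested, 25.1% were lower and 24.7% higher in that comparison.

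**Figure D5:**
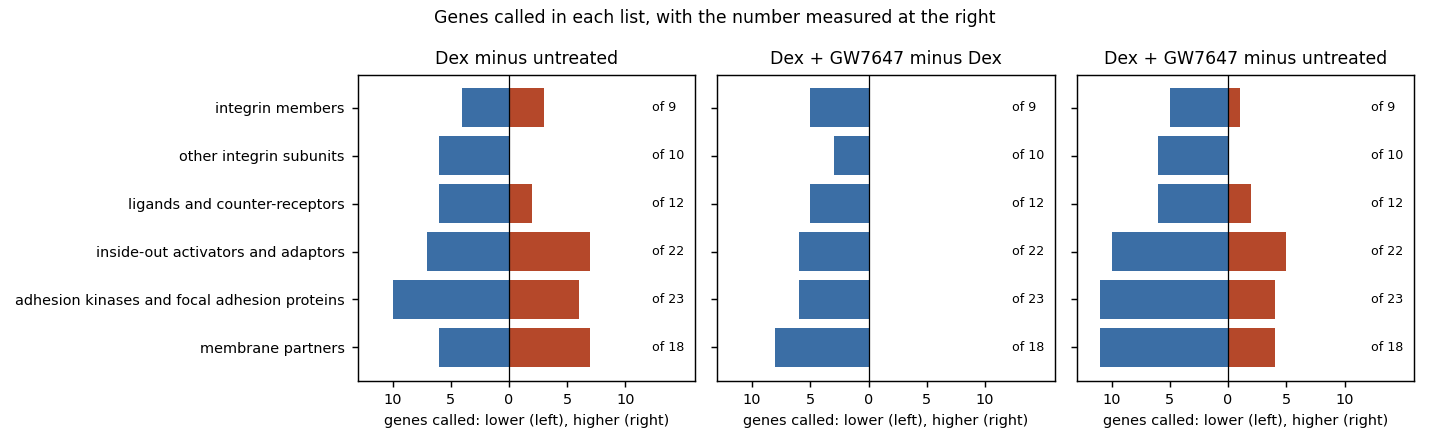
Number of genes called lower (left of 0) and higher (right of 0) in each of the 6 integrin and adhesion lists and each comparison, with the number measured at the right. With Dex plus GW7647 minus Dex none of these 6 lists has a gene called higher, beside 2.15% of all genes tested.

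By Euclidean distance between centred log2 normalized counts over the 6 libraries, the genes most like Itgb2 were Arhgap15 (0.174), Nucb2 (0.237), F13a1 (0.248). Those most like Itga6 were Sirpa (0.12), Mfap3l (0.143), Clu (0.146), and those most like Itgal were Relb (0.137), Syk (0.151), Tbc1d19 (0.173). Itgam lay nearest to Diras2 (0.14), Alox12 (0.271), Mmrn1 (0.278). The genes nearest to Itgb7 were 1300017J02Rik (0.0703), Ctla2a (0.104), Psma8 (0.105), and those nearest to Itga4 were Gm17131 (0.045), Caap1 (0.0521), Gm6851 (0.0621). Among the members themselves, the nearest to Itga4 was Itgb1 (0.213), while the nearest to Itga6 was Itgam (0.444) and the nearest to Itgb2 was Itgb7 (0.857). By this distance any genes that change little lie close together, and neither Itga4 nor Itgb1 was called in any comparison. The genes named for each member were the 3 nearest of the 11277 compared, so no other member could lie nearer than those. The distances describe 3 groups of 2 libraries.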

How the data were processed

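TruSeq libraries were made from TRIzol-purified RNA, labelled as polyA, per the labels. The authors deposited whole-number read counts per Ensembl gene, made with TopHat 1.4.1 and HTSeq, and an adjusted p-value from DESeq, per the submitters' processing notes and the file headers, which name the builds mm9 and NCBIM37. Whether strand was used is not given in the sources used here: the opposite-strand genes Cerkl (37 counts in all) and Gm13684 (5) overlap Itga4 and Itgav in a later annotation. Symbols and exon lengths were joined by Ensembl identifier from GRCm38 release M21.

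The counts of 6 libraries (35970286 to 54174801 each) were analysed with edgeR 4.0.16 (R 4.3.3): filterByExpr with a minimum count of 10 kept 14125 genes, libraries were scaled by TMM, and the quasi-likelihood test was fitted to all genes with Benjamini-Hochberg adjustment and a threshold of 0.05. Fits were tested on simulated data. DESeq2 1.42.0, limma-trend 3.58.1, other scalings and filters, and fits without each library were alternatives. Named genes were the 10 members and up to 4 called genes per list and comparison with the smallest p. Members and lists were chosen with earlier results of these data known. Genes outside that rule (Gata1, Epor, C1qa, Cd163, Ly6g, Cd3d, Fermt3, Tln1, Rap1a, Vcam1, Icam4, Vtn) were named after their values were seen. So were Kit, Mpo and Hdc, which met the rule.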

Additional observations from a re-analysis of the deposited data

How the results depend on the processing

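Of 378 alternative values for the members' log2 differences, 359 kept their direction and side of the threshold, 9 lost a call (Itga5, Itga6 and Itgal with both drugs against Dex), 4 gained one and 6 turned, all of the last for Itga4 and Itgb1, which were not called. Leaving out 1 library at a time, Itga4 ranged over log2 -0.08 to 0.13 and Itgb1 over -0.0027 to 0.11 in Dex against untreated (Itga4 was -0.05 without untreated replicate 2). Between both drugs and Dex, Itgb1 ranged over -0.02 to 0.09. Between both drugs and untreated, Itga4 ranged over -0.16 to 0.01, and was 0.04 under total count scaling.

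Leaving out each library in turn gave 2 to 5 lower members with both drugs against Dex, and 548 to 1729 called genes; with no filter on low counts, 2085 genes were called. Under total count scaling, 3 members were higher with both drugs against untreated. The labels do not say whether same-numbered libraries belong together. Their deviations correlated at 0.149, -0.212 and -0.046 between groups, and so few libraries cannot settle it. With the replicate number as a block, 4 members were lower with both drugs against Dex, since Itga5 was not called (adjusted p = 0.0921), and the other counts of members were the same. Itgam, at 32 to 161 counts, had the fewest counts of the tested members, and Itgax could not be tested. Causes were not tested.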
